A study of Mus musculus with 6 samples.

Results

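Blood and blood vessels run through the testis, and their cells carry their own microRNAs (miRNAs, small RNAs that silence target mRNAs). Here 5 such genes were followed, and all 5 were read in each library: Mir126a of endothelial cells, Mir451a and Mir144 of red blood cells, and Mir142 and Mir223 of white blood cells. A read was counted when it was 18 to 26 nt long and matched the sense strand of the gene without a mismatch. GENCODE annotates 2202 mouse genes as miRNA, of which 1653 had at least 1 read. The series holds 6 small RNA libraries of whole testis from C57BL/6 mice, each made from 1 pool of animals. The groups were Dnmt3L WT and Dnmt3L KO at 16.5 days post coitum (dpc), with testes of 7 or 8 mice in a pool, Dnmt3L WT and Dnmt3L KO at 10 days post partum (dpp), and Miwi2 WT and Miwi2 KO at 10 dpp, with 3 mice in a pool. WT animals were control littermates, and the labels give neither the alleles nor any treatment. Dnmt3L is a cofactor of the enzymes that methylate DNA in fetal germ cells, and Miwi2 is a Piwi protein of the same cells. With 1 library per group no difference can be tested against the spread between animals, so intervals below are 95% intervals that cover counting error only.

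An miRNA is cut from a hairpin, first out of the primary transcript by Drosha and then, for most miRNAs, by Dicer, which leaves a duplex of a 5p and a 3p strand. Bases 2 to 8 of the mature strand, the seed, set which mRNAs it pairs with, so a shift of the 5′ end changes the seed while a change of the 3′ end leaves it as it is. miR-126 lies within the endothelial gene Egfl7 and supports vessel growth, miR-144 and miR-451 are made from 1 primary transcript under GATA1 during red cell maturation, miR-142 is found across blood lineages, and miR-223 is a miRNA of granulocytes and other myeloid cells. miR-451 is the known exception to the pathway: Ago2 rather than Dicer cuts its short hairpin, only the 5′ side of the hairpin is kept, and that strand is then trimmed from its 3′ end.

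The mature strands are shown first, because the results turn on which strand and which end was read. They are RefSeq sequences of the GRCm38.p6 build, written 5′ to 3′ with the seed in capitals.
miR-126a-3p: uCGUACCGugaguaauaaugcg
miR-451a: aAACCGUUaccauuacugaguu
miR-144-5p: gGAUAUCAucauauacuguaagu
miR-144-3p: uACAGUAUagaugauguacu
miR-142a-5p: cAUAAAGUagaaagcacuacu
miR-142a-3p: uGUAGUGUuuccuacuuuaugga
miR-223-5p: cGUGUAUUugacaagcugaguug
miR-223-3p: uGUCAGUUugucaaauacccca
All 8 had different seeds, and none shared its seed with another mature mouse miRNA in the RefSeq table. The 5p strand of Mir126a was the most abundant read of the group, and its most common form in the deposited files, with T for U and the same capitals, was 21 nt long.
Mir126a 5p read: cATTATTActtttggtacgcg
The miR-451a hairpin is shown whole, with the most common read of 23 nt in capitals, because that read runs through the loop.
Mir451a hairpin: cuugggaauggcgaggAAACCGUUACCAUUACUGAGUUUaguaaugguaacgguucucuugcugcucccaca
In the structure predicted from this sequence the loop was bases 35 to 38 of 72, and the read covered bases 17 to 39, with 18 of its 23 bases paired. The common 5p reads of Mir126a, Mir144 and Mir142 did not span the predicted loop, and Mir223 had too few 5p reads to assess.

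On the GRCm38 build the 5 genes lie on 3 chromosomes. Mir126a is at chr2:26591357-26591429 on the plus strand, inside Egfl7, where an annotated Egfl7 transcript that keeps an intron also holds it, and in an intron of the overlapping gene Gm20532. Mir144, at chr11:78073005-78073070, and Mir451a, at chr11:78073170-78073241, are both on the plus strand with 99 bases between them and lie in no other gene on that strand. Mir142, at chr11:87756864-87756927, is in an intron of the long noncoding RNA gene Mir142hg, and Mir223, at chrX:96242817-96242926, is within an exon of the noncoding gene F630028O10Rik, both on the plus strand. Of the 5 genes, 3 have an annotated miRNA gene on the opposite strand, which reads of known strand told apart: Mir126b and Mir451b had 0 reads in all 6 libraries, and Mir142b had 1 read, in the Dnmt3L WT at 10 dpp. A count of 0 does not show that an RNA is absent. The floor used here, 3 counts, was 0.123 to 0.248 reads per 1000000 miRNA reads, depending on the library. None of the 13 to 37 distinct sequences read from each of the 5 genes occurred in another miRNA gene.

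Levels are reads per 1000000 reads of all miRNA genes (RPM from here on). Those reads numbered 12101706 to 24433370 per library and made up 25.6% to 75.5% of all reads. A single gene, Mir10b, took 13.8% to 41.5% of miRNA reads, so the scaling moves with it. The Dnmt3L libraries of 10 dpp held reads of up to 100 nt and the other 4 of up to 50 nt, so the age comparisons and the comparison between both WT libraries of 10 dpp also cross that difference, whose part in them was not tested. To mark large differences, a limit was taken from both WT libraries of 10 dpp: the 95th percentile of the absolute log2 ratio between them, over 237 genes with a Mir symbol and at least 1000 reads, was 2.87, or 7.29-fold, and it was applied around 0 in both directions. Comparisons that share a library are not independent of each other. Markers of other testis cells were read in all libraries. Mir202 of Sertoli cells was at 103 to 800.2 RPM, and the 6 peritubular and mesenchymal miRNAs summed to 23108 in the fetal Dnmt3L KO and 44059.6 to 48943 in the other 5 libraries. The 6 miRNAs of pluripotent and fetal germ cells summed to 913 and 981 at 16.5 dpc and to 60.8 to 143 at 10 dpp, with Mir290a at 0 in the Dnmt3L KO of 10 dpp, and 8 spermatogenic X-linked miRNAs summed to 9513 to 70720. In whole tissue, fewer cells of a type and less RNA per cell cannot be told apart.

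Mir126a, the endothelial gene, was the most abundant of the 5 and, scaled to miRNA reads, among the steadiest of them. At 16.5 dpc its level was 979.7 RPM in Dnmt3L WT and 766 RPM in Dnmt3L KO. At 10 dpp it was 906 and 969.9 RPM in the same line, and 1148 RPM for Miwi2 WT and 1860.3 RPM for Miwi2 KO. The Miwi2 KO was the highest and the fetal Dnmt3L KO the lowest, and the fetal Dnmt3L WT and the Dnmt3L KO of 10 dpp had overlapping counting intervals. The highest level was 2.43-fold the lowest, against a median of 5.56-fold over 298 miRNA genes with at least 1000 reads in total and a read in every library. A smaller range was seen in 11.4% of those genes. Scaled to all reads of a library instead, Mir126a was highest in the Dnmt3L KO of 10 dpp (732 reads per 1000000) and still lowest in the fetal KO (196), a 3.73-fold range beside a median of 6.32-fold, and 25.5% of the genes had a smaller one. On that scale Mir451a (2.34-fold) and Mir144 (3.03-fold) had smaller ranges than Mir126a, and Mir223 (3.83-fold) and Mir142 (6.26-fold) larger ones. Mir126a ranked between place 65 and place 86 among 738 to 778 genes with a Mir symbol and a read.

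**Figure D1:**
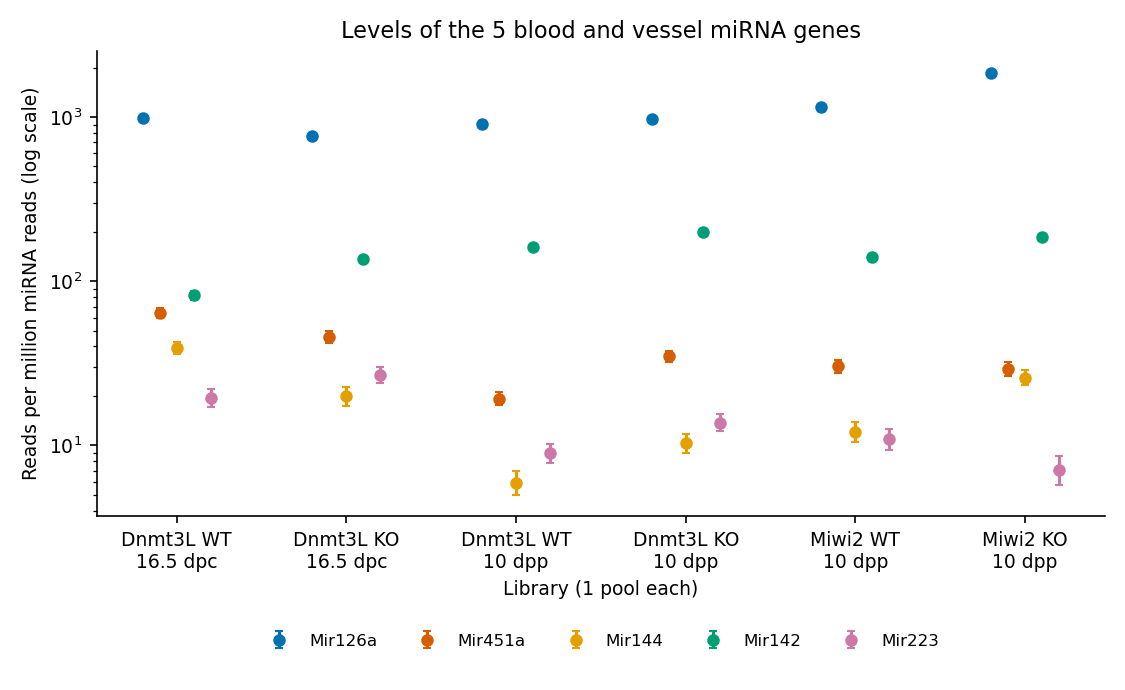
Level of each of the 5 genes (y axis, RPM, log scale) in the 6 libraries (x axis), with exact Poisson 95% intervals that cover counting error only. Mir126a sits between 766 and 1860.3 in every library, Mir142 between 81.8 and 199, and the other 3 genes below 65, with the red cell pair highest in the fetal Dnmt3L WT on this scale.

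Scaled to miRNA reads, the red cell pair was highest in the fetal Dnmt3L WT. Mir451a was at 64.2 RPM (WT) and 45.4 RPM (KO) at 16.5 dpc, at 19.2 and 34.7 RPM in the later Dnmt3L pools, and at 30.2 and 29.1 RPM in the Miwi2 pools, always WT before KO. Mir144 was at 39.2 and 19.8, 5.89 and 10.3, and 12.1 and 25.9 RPM in the same order. For Mir451a both fetal libraries lay above all 4 libraries of 10 dpp, whereas for Mir144 the Miwi2 KO lay between the fetal pools. In both genes the Dnmt3L WT of 10 dpp was the lowest library, and the highest-to-lowest ratio was 3.34 for Mir451a and 6.65 for Mir144. Scaled to all reads, Mir451a was instead highest in the Dnmt3L KO of 10 dpp, at 26.2 reads per 1000000 against 18.8 in the fetal WT, and lowest in the Miwi2 KO (11.2), and the fetal KO (11.6) was below the Dnmt3L WT of 10 dpp (12.3). Mir144 kept its highest and lowest library on that scale, at 11.5 and 3.78. On the miRNA scale the intervals of the Dnmt3L KO of 10 dpp and the Miwi2 WT overlapped for both genes, and those of both Miwi2 libraries for Mir451a.

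Although both come from 1 primary transcript, the 2 red cell miRNAs did not keep a fixed ratio. Mir451a had 1.64 reads per Mir144 read in fetal Dnmt3L WT (counting interval 1.46 to 1.84) and 2.29 in the fetal KO (1.97 to 2.68). At 10 dpp the ratio was 3.26 (2.702 to 3.96) and 3.36 (2.89 to 3.92) in the Dnmt3L WT and KO. Between the Miwi2 pools it was 2.505 (2.13 to 2.95) for WT and 1.12 (0.975 to 1.296) for KO. The Miwi2 KO was the lowest and the Dnmt3L libraries of 10 dpp the highest. In reads of Mir144 the libraries ran from the 144 of the Dnmt3L WT at 10 dpp to the 486 of the fetal Dnmt3L WT.

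Of the white cell genes, Mir142 was the more abundant and Mir223 the scarcest gene, with an interval apart from the next, in 2 of the 6 libraries. Mir142 was at 81.8 RPM (WT) and 136 RPM (KO) at 16.5 dpc, at 161 and 199 RPM in the later Dnmt3L pools, and at 140.2 and 186 RPM in the Miwi2 pools. The fetal Dnmt3L WT was the lowest library for Mir142, the only one of the 5 genes of which that was so, and each of the 3 KO pools was above its WT, except, at 16.5 dpc and for Miwi2, when distinct sequences were counted. Mir223 was at 19.5 and 26.9, 8.92 and 13.7, and 10.9 and 7.04 RPM in the same order. Both fetal libraries were above those of 10 dpp, but scaled to all reads the Dnmt3L KO of 10 dpp was the highest for Mir223, at 10.4 reads per 1000000 against 5.71 and 6.90 in the fetal WT and KO. On the miRNA scale the intervals of neighbours among the Dnmt3L KO of 10 dpp, the Miwi2 WT, the Dnmt3L WT of 10 dpp and the Miwi2 KO overlapped. The reads behind these levels numbered 1015 to 4306 for Mir142 and 101 to 326 for Mir223.

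Within a library the order of read numbers was Mir126a, Mir142 and Mir451a in all 6. A read is a whole miRNA, so no correction for length applies, but adapters join to different ends with different ease, and an order of genes is an order of read numbers. Mir223 was above Mir144 in the fetal Dnmt3L KO and both Dnmt3L libraries of 10 dpp and below it in the fetal Dnmt3L WT and the Miwi2 KO. The intervals of Mir144 and Mir223 overlapped in the Miwi2 WT, and those of Mir451a and Mir144 in the Miwi2 KO.

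The first comparison asked how the loss of Dnmt3L bears on the fetal testis. In the fetal Dnmt3L KO the 3 vessel and red cell genes were lower than in the WT, and both white cell genes higher. Mir126a was at 0.782-fold (counting interval 0.761 to 0.803), Mir451a at 0.708-fold (0.634 to 0.7904) and Mir144 at 0.506-fold (0.432 to 0.592). Mir142 was at 1.67-fold (1.54 to 1.804) and Mir223 at 1.38-fold (1.17 to 1.64). These signs held under every other scaling, but those of Mir126a, Mir451a and Mir142 turned when each distinct sequence was counted once (log2 ratios of 0.06, 0.02 and -0.13). Beside them the peritubular and mesenchymal sum was 44059.6 RPM in the WT and 23108 RPM in the KO, and its part in these values was not tested. None of the 3 genes with at least 1000 reads over the compared libraries (Mir126a, Mir451a, Mir142) was past the limit, and 0.478% of all 209 genes compared were, around a median log2 ratio of -0.03.

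At 10 dpp all 5 genes were above the WT level in the Dnmt3L KO. Mir451a was at 1.81-fold (1.61 to 2.03), Mir144 at 1.75-fold (1.42 to 2.18), Mir223 at 1.54-fold (1.29 to 1.84), Mir142 at 1.23-fold (1.18 to 1.29) and Mir126a at 1.07-fold (1.0501 to 1.09), the last falling to a log2 ratio of -0.08 with Mir10b left out of the scaling. The median gene was itself at a log2 ratio of 0.41, above those of Mir126a (0.10) and Mir142 (0.30) and below those of Mir451a (0.85), Mir144 (0.81) and Mir223 (0.62). Beside them the X-linked spermatogenic sum was 48564 RPM in the WT and 13231 RPM in the KO, and the epithelial sum 261 and 517 RPM, with its gene Mir141 past the limit at 7.98-fold, and the part of both in these values was not tested. None of the 3 genes with enough reads was past the limit, and 2.23% of 224 genes were.

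The third comparison asked the same of Miwi2. In the Miwi2 KO, Mir144 was at 2.14-fold of the WT level (1.81 to 2.55), Mir126a at 1.62-fold (1.59 to 1.65) and Mir142 at 1.33-fold (1.26 to 1.404), around a median log2 ratio of 0.11 over 238 genes. Mir451a was at 0.962-fold, with an interval of 0.845 to 1.0956 that holds 1, and Mir223 at 0.647-fold (0.504 to 0.828). The intervals of Mir144 and Mir451a, neighbours in the genome, did not overlap. The sign of Mir142 turned when distinct sequences were counted (-0.11 on the log2 scale). The X-linked spermatogenic sum was 34915 RPM in the WT and 70720 RPM in the KO, and its part in these values was not tested. Neither Mir126a nor Mir142, the 2 genes with 1000 reads, was past the limit, where 0.84% of genes were.

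With age the red cell genes and Mir223 were lower at 10 dpp than at 16.5 dpc, and Mir142 was higher, with signs that in part turn with the scaling. In the Dnmt3L WT the log2 ratios of 10 dpp over 16.5 dpc were -2.73 for Mir144 (0.1504-fold), -1.74 for Mir451a (0.2997-fold), -1.13 for Mir223 and 0.98 for Mir142, around a median of -0.23. That of Mir126a was -0.11 and turned to between 0.22 and 1.02 under 4 other scalings, and to 0.03 and 0.04 with added A or T bases and with distinct sequences counted. Scaled to all reads, the median itself moved to 0.90, Mir144 to -1.60, Mir451a to -0.61 and Mir223 to 0.004, and with distinct sequences Mir142 turned to -0.02 and Mir223 to 0.89. No gene of the 3 with enough reads passed the limit, where 17.8% of 225 genes did.

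In the Dnmt3L KO the log2 ratios with age were nearer to 0 than in the WT for both red cell genes when scaled to miRNA reads. Scaled to all reads this held for Mir144 but not for Mir451a, and the difference between KO and WT was not tested. On the miRNA scale the log2 ratios were -0.94 for Mir144, -0.39 for Mir451a, -0.97 for Mir223, 0.34 for Mir126a and 0.54 for Mir142, around a median of -0.12. Scaled to all reads, the first 3 turned to 0.62, 1.17 and 0.59 while the median moved to 1.44, and Mir451a also turned under TMM (0.25) and median-of-ratios scaling (0.15). With distinct sequences counted the same 3 genes were at 0.08, 0.34 and 0.96. Relative to the median gene, Mir144 and Mir223 stayed below it, at -0.82 and -0.85 on the log2 scale, and Mir142 above it, at 0.66. None of 3 genes passed the limit, beside 12.1% of 224 genes.

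The last comparison sets both WT libraries of 10 dpp side by side. They differ in line, in longest read and in the share of Mir10b, which cannot be told apart here. In the Miwi2 WT over the Dnmt3L WT the log2 ratios were 0.34 for Mir126a, 0.65 for Mir451a, 1.03 for Mir144, -0.20 for Mir142 and 0.29 for Mir223, around a median of 0.90. Under median-of-ratios scaling, where the median was -0.18, the first 3 turned to -0.74, -0.43 and -0.05 and Mir223 to -0.79, and Mir142 turned to 0.03 with distinct sequences. By the way the limit was set about 1 gene in 20 passes it here, and 5.06% of 237 genes did, with none of the 3 genes among them. The genes past the limit, 12 in all, were higher in the Miwi2 WT, and 0 were lower. The limit, 2.87 around 0 here, was 2.41 with TMM and 2.35 with median-of-ratios scaling. Of the 5 genes, all but Mir144 were below the median gene. Mir10b took 41.5% of miRNA reads in the Dnmt3L WT and 13.8% in the Miwi2 WT, and its part in these ratios was not tested beyond leaving it out, which put Mir126a at -0.22 and Mir223 at -0.27.

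**Figure D2:**
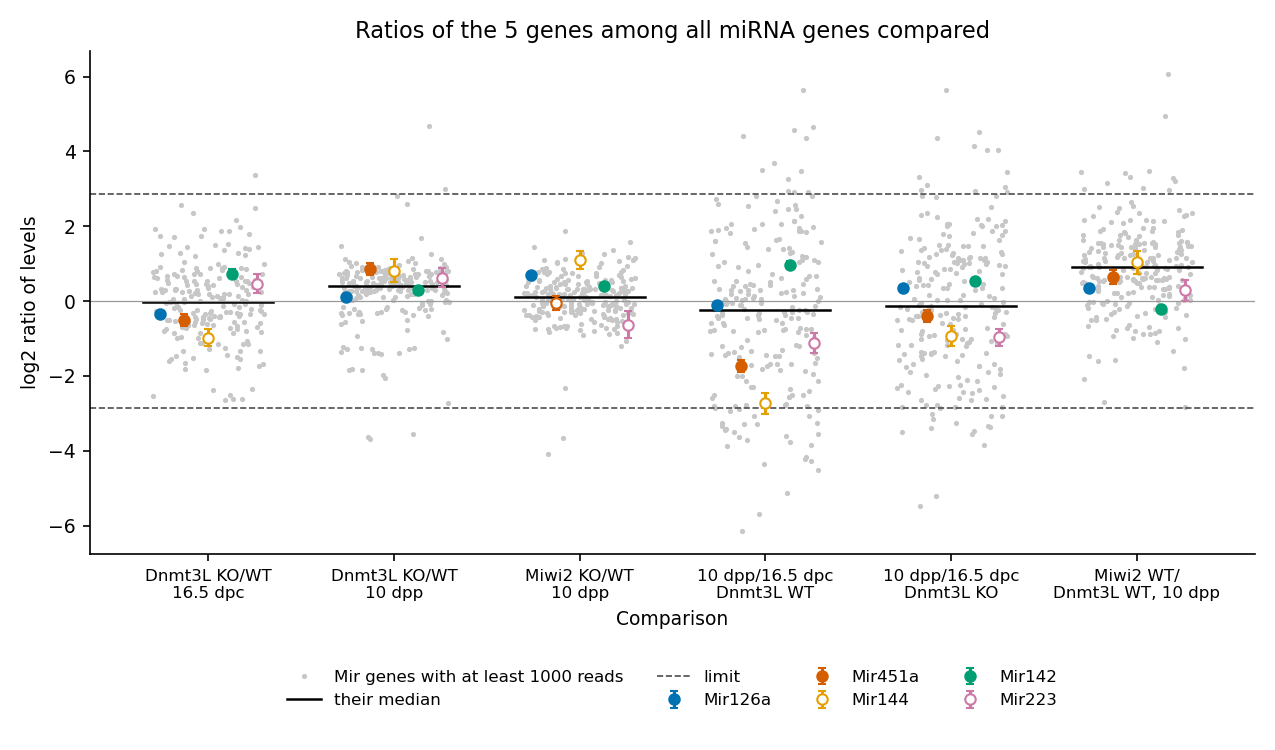
Log2 ratio of levels (y axis) in the 6 comparisons (x axis) for the 5 genes, with 95% counting intervals, over all Mir genes with at least 1000 reads (grey) and their median (black bar). Filled points have at least 1000 reads over the compared libraries, open points fewer. The dashed lines mark the limit of 2.87, and no filled point lies past it.

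Longer miR-451a reads took a larger share in both fetal libraries than in the 4 libraries of 10 dpp. Reads of 23 nt were the most common form everywhere, and the forms shown here, of the same 5′ end and the same seed, are those that the next values describe.
miR-451a read of 21 nt: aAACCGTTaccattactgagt
miR-451a read of 23 nt: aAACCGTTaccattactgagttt
miR-451a read of 26 nt: aAACCGTTaccattactgagtttagt
The 26 nt form, which is the longest within the rule and is 3 bases longer than the common form, made up 13.2% (10.9 to 15.7) and 14.2% (11.4 to 17.4) of Mir451a reads in the fetal Dnmt3L WT and KO. At 10 dpp its share was 4.68% (2.96 to 7.001) in Dnmt3L WT, 6.64% (4.97 to 8.66) in Dnmt3L KO, 3.36% (2.002 to 5.26) in Miwi2 WT and 5.52% (3.53 to 8.16) in Miwi2 KO. Both fetal shares lay above all 4 shares of 10 dpp, by at least 6.55 percentage points, and within an age the KO and WT intervals overlapped.

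Shorter forms went the other way. Reads of 21 nt were 6.28% and 8.36% of Mir451a reads in the fetal Dnmt3L WT and KO, and 26.2%, 18.7%, 17.7% and 17.3% in the libraries of 10 dpp in the order used above. The 23 nt form went from 61.6% and 64.4% to between 41.9% and 48.1%. The mean length was 23.2 nt in both fetal libraries and 22.4 to 22.5 nt at 10 dpp.

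Among 213 Mir genes with at least 100 reads of their own in every library, 28.6% had both fetal mean lengths above every mean of 10 dpp, so the direction alone is common. The size was less so: a gap at least as large as that of Mir451a (0.67 nt) was found in 2 genes, Mir451a among them. By the change in mean length from 16.5 dpc to 10 dpp more genes matched it. A fall at least as large was found in 5 genes in the Dnmt3L WT (Mir451a at -0.83 nt). In the Dnmt3L KO it was found in 7 (Mir451a at -0.67 nt), with Mir451a counted in both. The reads of all other miRNA genes were also longer in the fetal libraries, with 13.1% and 16.4% at 24 to 26 nt against 6.92% to 8.57% at 10 dpp, and the part of that in the miR-451a lengths was not tested. At 26 nt alone the other genes had 0.0668% to 0.425% of their reads, with the Miwi2 WT of 10 dpp (0.324%) above the fetal Dnmt3L WT (0.262%). By share of 26 nt reads Mir451a ranked between place 2 and place 6 of the 213 genes. Beyond 26 nt it had 3 reads in the fetal Dnmt3L WT, 1 in the Dnmt3L WT of 10 dpp and 0 in the other 4 libraries.

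**Figure D3:**
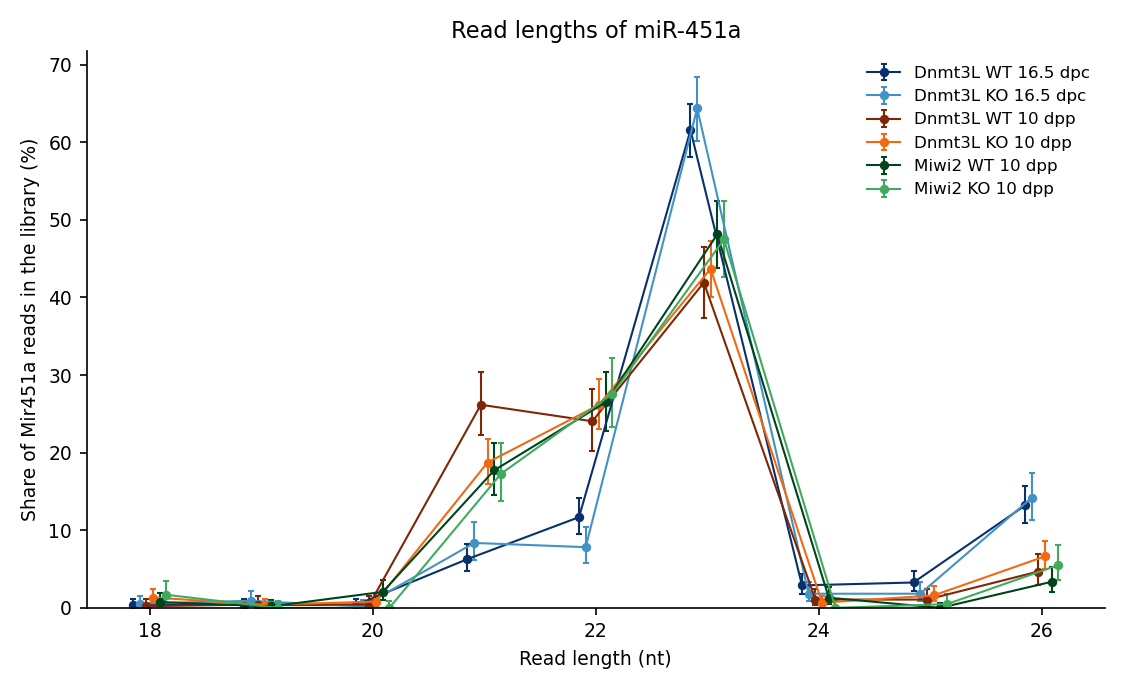
Share of Mir451a reads (y axis, percent of the gene's reads in a library) by read length (x axis, nt), with exact Clopper-Pearson 95% intervals, 1 line per library. Both fetal lines are higher at 23 and 26 nt (13.2% and 14.2% at 26 nt) and lower at 21 and 22 nt than the 4 lines of 10 dpp.

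The strand that was read also differed between the genes. Mir451a reads came from the 5′ side of the hairpin in at least 99.3% of cases in every library, and 0 to 4 reads per library came from the other side. Mir223 gave 92.2% to 99.2% of its reads from the 3p strand, the known guide strand, but this rests on the 26 nt maximum: with reads of up to 32 nt the 5p strand was 7.47% to 29.6% of its reads. Mir126a gave 74.9% to 84.6% from the 5p strand, lowest in the fetal Dnmt3L WT and highest in the Dnmt3L WT of 10 dpp. From the first to the second of these the 5p strand was at 1.04-fold (1.02 to 1.07). The 3p strand, miR-126a-3p, was at 0.567-fold (0.540 to 0.596), which the total of the gene does not show. With age in the Dnmt3L KO both strands were higher, at 1.22-fold for 5p and 1.47-fold for 3p.

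For Mir144 the balance shifted between libraries. The 5p strand was 45.3% (40.8 to 49.8) and 45.0% of Mir144 reads in the fetal Dnmt3L WT and KO, 63.2% (54.8 to 71.1) and 67.9% in those of 10 dpp, 47.7% for Miwi2 WT and 60.4% for Miwi2 KO. With reads of 20 to 24 nt only, the shares at 10 dpp were 75.6%, 78.2%, 60.4% and 70.7%. Between the fetal and the later Dnmt3L WT the 3p strand, miR-144-3p, went from 21.4 to 2.17 RPM and the 5p strand from 17.7 to 3.72.

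Mir142 was read almost wholly from its 5p strand, with the fetal Dnmt3L WT apart. The 3p strand was 18.0% of Mir142 reads there, 2.73% in the fetal Dnmt3L KO, and 0.889%, 1.53%, 3.86% and 5.31% in the Dnmt3L WT, Dnmt3L KO, Miwi2 WT and Miwi2 KO of 10 dpp. In levels the fetal Dnmt3L WT had 14.8 RPM of the 3p and 67.1 RPM of the 5p strand, and the fetal KO 3.72 and 133 RPM. The higher Mir142 total in the fetal KO was thus made up of a higher 5p strand, at 1.98-fold. The 3p strand was lower there (0.252-fold, from 183 to 45 reads). Most of these 3p reads in the fetal WT, 119 of 183, started at base 43 of the hairpin, against 12 of 45 in the KO. That form has another seed, GUGUUUC. Reads from base 40, the annotated start of miR-142a-3p, numbered 44 in the fetal WT and 20 in the fetal KO.

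The 5p strand of Mir142 was read from 2 starting points, and they are shown because their seeds differ. The annotated strand starts at base 4 of the hairpin, and the more common form over the 6 libraries started at base 2.
Mir142 5p read from base 2: cCCATAAAgtagaaagcact
Mir142 5p read from base 4: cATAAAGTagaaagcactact
The first form made up 56.7% (53.3 to 60.1) and 61.6% of 5p reads in the fetal Dnmt3L WT and KO, 69.5% (68.03 to 70.9) and 66.01% in those of 10 dpp, 55.8% for Miwi2 WT and 45.3% (43.4 to 47.3) for Miwi2 KO. The annotated form made up 28.1% (26.7 to 29.6) in the Dnmt3L WT of 10 dpp and 52.7% (50.7 to 54.7) in the Miwi2 KO, the only library where it was the larger. The seed of the base 2 form, CCAUAAA, is that of the mature miR-142b, whose gene lies on the opposite strand, but over all miRNA genes all 9454 reads with it came from Mir142.

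**Figure D4:**
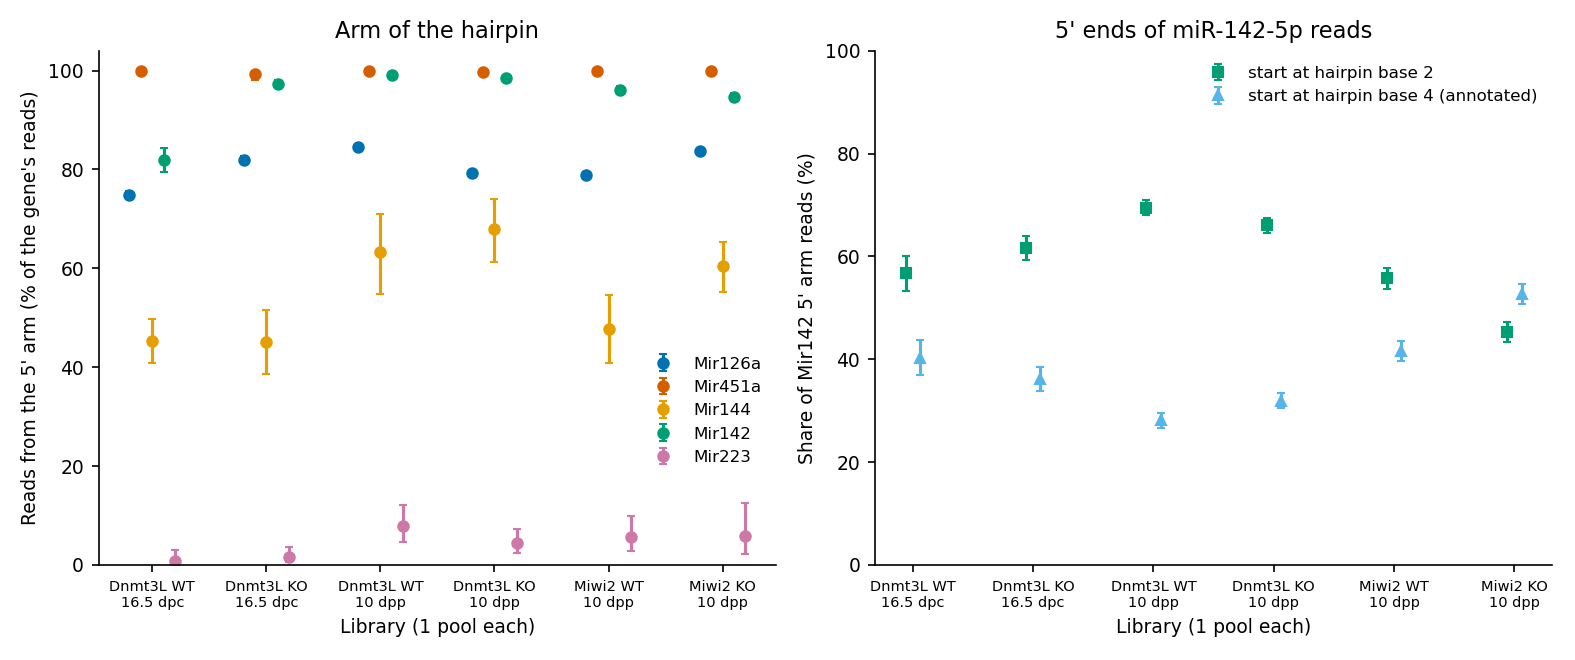
Left, share of each gene's reads from the 5p strand (y axis, percent) in the 6 libraries (x axis). Right, share of Mir142 5p reads that start at base 2 or at the annotated base 4 of the hairpin. Bars are exact Clopper-Pearson 95% intervals. Mir142 dips to 82.0% in the fetal Dnmt3L WT, and its starting points change order in the Miwi2 KO, at 45.3% and 52.7%.

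In Mir126a the 5p strand began at 1 base in 99.6% to 99.9% of reads, while the 3p strand began at the annotated base in 60.7% of reads in the fetal Dnmt3L KO and 74.6% to 82.5% in the other 5 libraries. A 3p form that starts 1 base later, and so has another seed, was 23.9% of that strand in the fetal Dnmt3L KO, 19.3% and 20.6% in both Miwi2 pools, and 9.42% to 11.7% in the other 3. Mir223 3p reads began at the annotated base in 91.5% to 100% of cases, and Mir451a 5p reads in at least 99.6%.

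Bases added after the cut are a common mark on miRNA 3′ ends. Reads that matched a gene except for 1 or 2 final A or T bases were 9.82% to 20.5% of Mir223 reads, highest in both Dnmt3L libraries of 10 dpp (18.7% and 20.5%), and 6.28% to 9.15% of Mir126a reads. They were 1.55% to 5.05% of Mir142 reads, 0% to 1.85% of Mir144 reads and 0% to 1.18% of Mir451a reads. Over all miRNA genes the share was 10.1% to 24.3%, highest in the fetal libraries. Mir126a, Mir142, Mir144 and Mir451a were below that share in each library, and Mir223 was above it in both Dnmt3L libraries of 10 dpp and below it in the other 4. The hairpin of Mir451a continues with T bases after the 21 nt form, so an added T cannot be told from the gene's own base there. The same holds for a T after the common Mir144 5p read. It also holds for an A after the common Mir144 3p, Mir142 5p and Mir223 3p reads. Such bases were counted as the gene's own, so the shares of these genes leave them out. The part of this in their place below all miRNA genes was not tested.

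Lists of other blood and vessel miRNAs were read beside these genes. Of the 2 other miRNAs of the red cell list, Mir486, made during red cell maturation, was far more abundant than Mir451a. Its level was 6370.3 and 3577 RPM in the fetal Dnmt3L WT and KO. It was 666 and 572 RPM in those of 10 dpp and 1228 and 1386 RPM for Miwi2. Whether its reads came from red cells was not tested. Mir210, also known as the miRNA that low oxygen induces in most cells, was at 725 and 616, 49.97 and 86.7, and 499 and 505 RPM. In the Dnmt3L WT both fell with age past the limit, Mir486 by 3.26 and Mir210 by 3.86 on the log2 scale, but Mir486 missed it when scaled to all reads or counted from reads of 1 miRNA gene only, and both missed it with distinct sequences. In the Dnmt3L KO their log2 ratios with age were -2.64 and -2.83 and missed the limit, which 1 or both passed under 8 alternatives. Reads of Mir486 cannot be told from those of Mir486b, a near-identical gene on the opposite strand that is not annotated in GENCODE M21.

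Summed over the 4 red cell genes, levels were 7199 and 4258 in the fetal Dnmt3L WT and KO, 742 and 704 in those of 10 dpp, and 1769 and 1946 RPM for Miwi2, with none at 0. Without Mir451a and Mir144 the sums were 7095 and 4193, 716 and 659, and 1727 and 1891 RPM in the same order. Nearly all of the red cell sum was therefore Mir486 and Mir210, so the sum follows those 2 genes, and how far it stands for red cells was not tested. The Miwi2 and Dnmt3L WT of 10 dpp thus differed in the red cell sum, and Mir210 passed the limit between them (9.98-fold higher in the Miwi2 WT) except under median-of-ratios scaling and when distinct sequences were counted. Among 7 further endothelial genes with reads (Mir23a, Mir27a, Mir24-2, Mir221, Mir222, Mir218-1 and Mir218-2, the last 2 sharing reads) none passed the limit in any comparison as described. Under alternatives Mir218-2 passed it in the fetal KO (scaled to all reads, by median-of-ratios, and at the 90th percentile) and with age in the WT (6 alternatives besides the 2-fold limit), and Mir218-1, Mir23a, Mir27a and Mir221 each passed it with age under at least 1. In the Dnmt3L KO of 10 dpp 6 of the 7 had a log2 ratio above 0, with a median log2 ratio of 0.80 beside 0.41 over all genes, and in the fetal KO 3 of the 6 with 1000 reads were above 0 and 3 below. The endothelial sum was 1641 to 2738 RPM, with Mir126b at 0. It was highest in the Miwi2 KO, where Mir126a made up 1860.3 of it, and without Mir126a the sum there (878) was below that of the Miwi2 WT (999.6) and of the Dnmt3L KO of 10 dpp (1087). Between the Miwi2 pools 5 of the 7 further genes had a log2 ratio below 0, with a median of -0.06 beside 0.11 over all genes.

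Of 7 further white cell and platelet genes, 3 or 4 had enough reads in a comparison, and none of these passed the limit as described. In the Dnmt3L KO of 10 dpp the 3 with enough reads were all below the WT, Mir146 at 0.568-fold, Mir146b at 0.657-fold and Mir342 at 0.764-fold, where Mir142 and Mir223 were above it. With age in the Dnmt3L WT the same 3 had log2 ratios above 0 (0.11, 0.67 and 0.46). In the fetal Dnmt3L KO Mir342 was at 2.01-fold of the WT while Mir146 was at 0.191-fold and Mir146b at 0.398-fold, and Mir146 was past the limit under 4 other scalings. Mir146 and Mir146b also passed it with age in the Dnmt3L KO when scaled to all reads. Among genes with too few reads, Mir147 was at 3.90-fold with age in the WT and 6.17-fold in the KO. Mir511 was at 2.37-fold and 9.59-fold, Mir155 at 0.981-fold and 1.32-fold, and Mir150 at 0.770-fold and 0.639-fold. With distinct sequences Mir511 passed the limit with age in both, and Mir147 and Mir146b in the KO. Mir511 also passed it in the KO with a minimum of 100 reads and with no minimum. Mir146 and Mir146b, miRNAs induced by inflammatory signals, were at 0.1398-fold and 0.155-fold in the Miwi2 WT over the Dnmt3L WT of 10 dpp. Both were within the limit, which was taken from these same libraries. Both passed it when scaled to all reads, by TMM, by median-of-ratios and without Mir10b. They also passed at the 90th percentile, with the 2-fold limit and with the limit from all genes annotated as miRNA. Mir146 alone also passed at 20 to 24 nt and with a minimum of 100 reads. Mir155 was scarce in all libraries, at 1.16 to 3.21 RPM. The white cell sum was 1343 to 2252, with none at 0.

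**Figure D5:**
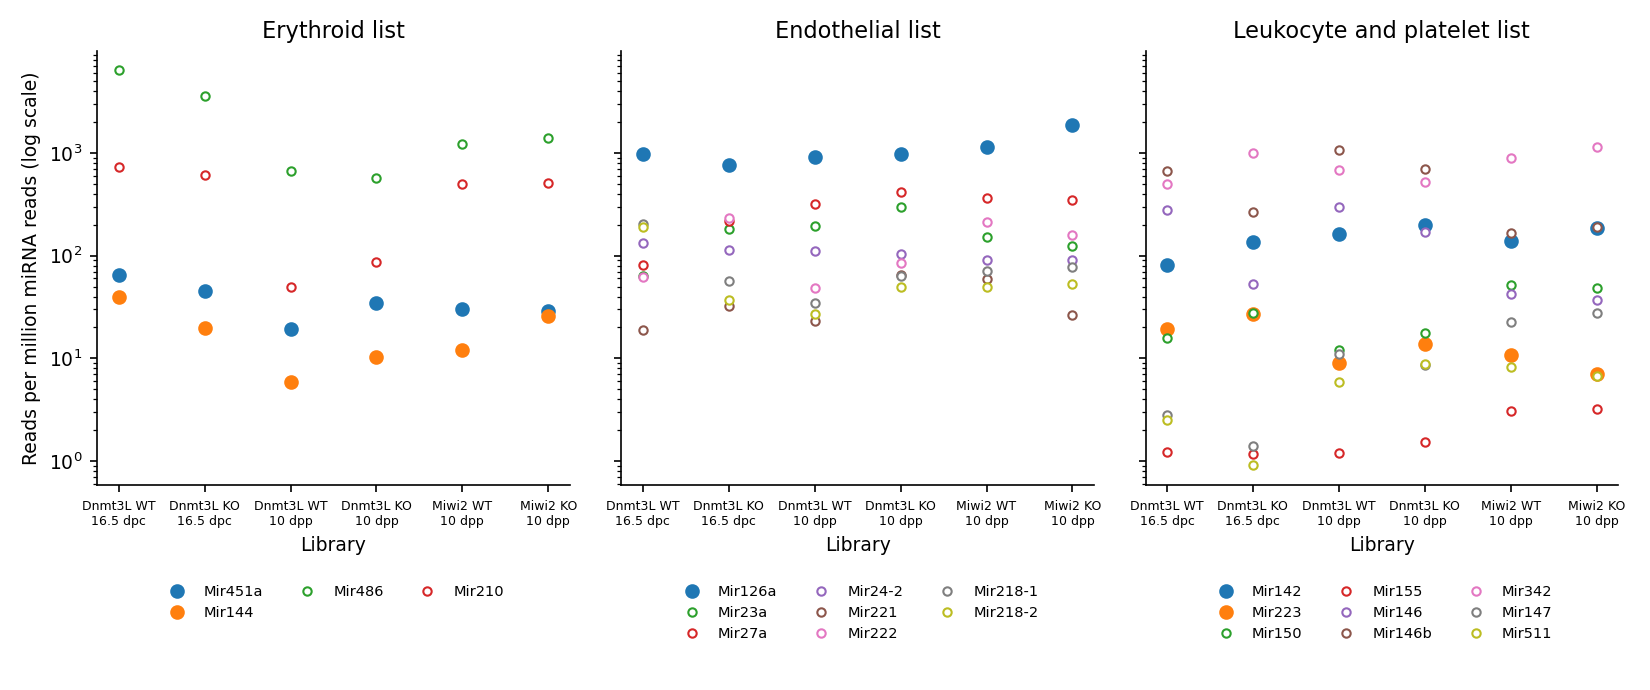
Levels (y axis, RPM, log scale) of the red cell, endothelial and white cell lists in the 6 libraries (x axis). Large filled points are the 5 genes, open points the other list genes with reads. Mir486 drops from 6370.3 and 3577 at 16.5 dpc to between 572 and 1386 at 10 dpp.

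Across the 6 libraries the genes whose levels were most alike were different for each of the 5. By Pearson's r of log2 levels (with 1 added) over 298 genes these were Mir20a (0.92), Mir21a (0.91) and Mir32 (0.91) for Mir126a, and Mirlet7b (0.96), Mir26a-2 (0.95) and Mir26a-1 (0.95, nearly the same reads as Mir26a-2) for Mir142. For Mir451a they were Mir494 (0.95), Mir149 (0.94) and Mir679 (0.92), for Mir144 Mir3102 (0.97), Mir874 (0.95) and Mir433 (0.91), and for Mir223 Mir380 (0.94), Mir412 (0.92) and Mir541 (0.92). No gene of the blood and vessel lists was among the 3 nearest of any. With 6 libraries that share their scaling, these are descriptions of likeness.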

How the data were processed

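Trizol extracts of whole testis were made into libraries with the Illumina TruSeq kit for small RNA after selection of 18 to 35 nt, per the labels' protocols. Each deposited file gives a read sequence and its count, the raw number of reads with that sequence, 28701563 to 47232494 in all per library. The submitters' processing notes name the mm9 build, while how the authors trimmed, aligned or filtered is not given in the sources used here. Sequences were matched here to genes annotated as miRNA in GENCODE M21 (GRCm38), on the sense strand, without mismatch, at 18 to 26 nt, and reads of several miRNA genes were divided evenly. Mature and hairpin sequences are from RefSeq (all 5 genes matched), and structures were predicted with ViennaRNA 2.7.2.

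Counts were scaled to 1000000 reads of all miRNA genes. Levels carry exact Poisson intervals, ratios conditional binomial and shares Clopper-Pearson intervals, which do not cover PCR copies or animals. A floor of 3 counts was 0.123 to 0.248. A ratio was called past the limit described in the results, at 1000 reads or more, with no test, since a group is 1 library. edgeR 4.0.16 gave TMM and median-of-ratios factors as alternatives only. The scripts were tested on simulated data. Genes named are the 5, their opposite-strand genes, the list genes and, for each, the 3 with the highest Pearson's r. Mir10b was named after its values were seen. The 5 genes and all lists were chosen with earlier results of these data known.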

Additional observations from a re-analysis of the deposited data

Results flagged for a closer look

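In 3 genes the Dnmt3L KO pool lay on opposite sides of its WT at the 2 ages, and this difference was not tested, since each group is 1 library. Mir126a had log2 ratios of -0.36 at 16.5 dpc and 0.10 at 10 dpp, Mir451a of -0.50 and 0.85, and Mir144 of -0.98 and 0.81. The median gene went the same way, from -0.03 to 0.41. The sign of Mir126a turned at 10 dpp with Mir10b left out of the scaling, and those of Mir126a and Mir451a at 16.5 dpc when distinct sequences were counted.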

How the results depend on the processing

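None of the 5 genes passed the limit in any comparison, and of 12 planned and 3 added alternatives these changed that: in the Dnmt3L WT with age 1 gene passed with distinct sequences (Mir223), 1 with a minimum of 100 reads (Mir144) and 1 with a fixed 2-fold limit (Mir451a), and in the Dnmt3L KO with age 1 passed with distinct sequences (Mir223). The 3 calls among 72 assessments of other blood and vessel genes became 12 when scaled to all reads, 7 with TMM, 8 with median-of-ratios scaling, 6 at 20 to 24 nt, 7 with distinct sequences, 7 with a minimum of 100 reads, 29 with the 2-fold limit and 11 with the 90th percentile. With 2 alternatives chosen after seeing the data they became 9 (limit from all genes annotated as miRNA) and 7 (scaling without Mir10b). The limit itself ran from 0.868 to 3.24. Of 300 recomputed ratios of the 5 genes, 40 changed sign, 14 of 30 with distinct sequences, 8 when scaled to all reads, 6 with median-of-ratios and 5 with TMM. The cause was not tested. The gap in 26 nt reads of miR-451a was 6.501 to 6.58 percentage points under its alternatives. No paired analysis was possible because each group is 1 library and the labels carry no replicate numbers. Depth limits Mir144 and Mir223, which had under 1000 reads in every comparison.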

Other observations

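Mir223 also gave reads longer than the miRNA window, and they are shown because they begin where miR-223-5p begins and run past its annotated end.
Mir223 read of 28 nt: cGTGTATTtgacaagctgagttggacac
Reads of 27 to 32 nt were 29.03% (24.3 to 34.2) and 19.5% (15.8 to 23.7) of Mir223 reads in the fetal Dnmt3L WT and KO, 6.84% (3.96 to 10.9) and 3.25% (1.57 to 5.89) in those of 10 dpp, and 21.9% (16.9 to 27.5) and 24.1% (17.1 to 32.2) in the Miwi2 WT and KO. Over the 6 libraries 268 of 290 such reads, or 92.4%, started at base 26 of the hairpin, the annotated start of miR-223-5p. By this share Mir223 was in place 1 or 2 of 214 Mir genes in every library, and the median gene was at 0%. Reads of all miRNA genes were 1.27%, 1.24%, 0.121%, 0.02795%, 0.983% and 0.652% at 27 to 32 nt in the same order, so the Dnmt3L libraries of 10 dpp were lowest in both, and the part of this in the Mir223 share was not tested. Mir223 lies within an exon of F630028O10Rik on the same strand, so its reads cannot be told from pieces of that RNA. None of these reads enters the levels above.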
